A study of Mus musculus with 4 samples.

Results

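The 10 genes described here encode regulators that T cells switch on soon after their antigen receptor is engaged: the zinc finger factors Egr1, Egr2 and Egr3, the orphan nuclear receptors Nr4a1, Nr4a2 and Nr4a3, and Myc, Ier2, Rcan1 and Nfil3. They were chosen by gene symbol, with earlier results of these data known. The vector table held a row for 10 of the 10 among 23259 genes and the DSS table for 9 of the 10 among 10663 genes. Nr4a2 had no row in the DSS table, which listed only genes above 1 FPKM (fragments of a gene, scaled to its length and to the size of the library) in at least 1 library, so it is not analysed in those cells.

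No member of the group differed by 2 times between the libraries of either experiment. In splenic regulatory T cells (Treg) after dextran sulfate sodium (DSS), Myc was the lowest relative to untreated cells, at 0.847 times, and Nfil3 the highest, at 1.28 times. In CD4 T cells given Sox12, the 3 Egr genes, Nr4a1, Nr4a3 and Ier2 were at 0.621 to 0.869 times the level with the mock vector, with Egr3 lowest, while Nfil3 was at 1.27 times. Nr4a2, Rcan1 and Myc were nearer to level, at 0.958, 0.9735 and 1.057 times. Of all genes averaging at least 1 FPKM with these vectors, 51.1% were lower with Sox12. Each group is 1 library, so none of the differences in either experiment has a replicate check.

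Immediate early genes are transcribed within minutes of receptor signalling without new protein synthesis, by factors already in the cell such as serum response factor, CREB and NFAT. Egr and Nr4a proteins then act on later genes. In T cells Egr2 and Egr3 are known as brakes on activation that support anergy, and Nr4a factors are known from Treg development, tolerance and exhaustion. Nr4a1 and Egr2 transcripts are widely read as signs of recent receptor signalling.

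RNA was sequenced in 2 experiments with 4 libraries in all. The first used hCD2-positive Treg from the spleen of Balb/c mice with the Foxp3-hCD2 reporter, in which a human CD2 molecule marks cells that express Foxp3, either without treatment or after 7 days on water with 3% DSS, a polymer that injures the colon lining. The second used wild-type C57BL6 mice, whose naive CD4 T cells were transduced with a mock vector or a Sox12 vector. Sox12 is a transcription factor of the SoxC group, and the series title links it to the induction of Treg. The sources used here do not give ages, sexes, the number of mice behind a library or the culture of the transduced cells.

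The defining markers of T cells were present in every library. Cd3e had 468 and 472 FPKM in untreated and DSS Treg and 260 and 214 FPKM with the mock and Sox12 vectors. Cd4 had 247, 243, 261 and 185 FPKM in the same order. Foxp3 had 88.2 and 84.9 FPKM in the Treg libraries, and 20.9 and 127 FPKM with the mock and Sox12 vectors. The Treg marker list did not move as one in the transduced cells: of its 8 genes, 3 were higher and 5 lower with the Sox12 vector. Foxp3 was the 1 marker higher by at least 1 in log2(FPKM + 1), and 2 were lower by as much, Nrp1 (23.6 and 5.94 FPKM) and Folr4 (124 and 38.9 FPKM). Among all 10822 genes averaging at least 1 FPKM with these vectors, 6.76% differed by as much, 525 higher and 207 lower.

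Short motifs were searched in promoters, and 6 of the 10 members had a window in the RefSeq table of GRCm38.p6, another build than the authors' mm9. A window runs from 250 bases before a start site to 50 bases from it on. The sequences below are those of the 3 Nr4a genes, which share matches to one motif, of Egr2 and of Rcan1. They are read 5′ to 3′ on the gene's own strand. Capitals mark matches, on either strand, to the motifs searched. Of the 5 windows of Egr2 and the 2 of Rcan1, those shown were picked after their matches were seen.

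Nr4a1, chr15:101266596-101266895, plus strand: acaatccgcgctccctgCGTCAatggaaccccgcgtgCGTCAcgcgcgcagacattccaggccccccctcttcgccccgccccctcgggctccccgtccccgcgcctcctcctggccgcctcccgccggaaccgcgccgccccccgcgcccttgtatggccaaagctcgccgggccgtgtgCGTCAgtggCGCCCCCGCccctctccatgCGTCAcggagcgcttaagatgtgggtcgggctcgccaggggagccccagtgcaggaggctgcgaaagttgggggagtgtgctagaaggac
Nr4a2, chr2:57123954-57124253, minus strand: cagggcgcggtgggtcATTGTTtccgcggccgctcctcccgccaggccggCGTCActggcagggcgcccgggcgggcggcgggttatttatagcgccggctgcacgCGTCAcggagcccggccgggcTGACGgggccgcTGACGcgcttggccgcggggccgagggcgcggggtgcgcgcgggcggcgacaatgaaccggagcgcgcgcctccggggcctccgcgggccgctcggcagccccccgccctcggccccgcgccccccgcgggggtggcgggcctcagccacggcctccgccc
Nr4a3, chr4:48045055-48045354, plus strand: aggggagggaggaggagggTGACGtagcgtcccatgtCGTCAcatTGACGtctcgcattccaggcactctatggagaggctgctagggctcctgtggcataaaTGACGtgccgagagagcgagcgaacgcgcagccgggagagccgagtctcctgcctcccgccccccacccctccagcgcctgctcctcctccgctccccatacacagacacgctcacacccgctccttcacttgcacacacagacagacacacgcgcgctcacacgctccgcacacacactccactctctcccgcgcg
Egr2, chr10:67537619-67537918, plus strand: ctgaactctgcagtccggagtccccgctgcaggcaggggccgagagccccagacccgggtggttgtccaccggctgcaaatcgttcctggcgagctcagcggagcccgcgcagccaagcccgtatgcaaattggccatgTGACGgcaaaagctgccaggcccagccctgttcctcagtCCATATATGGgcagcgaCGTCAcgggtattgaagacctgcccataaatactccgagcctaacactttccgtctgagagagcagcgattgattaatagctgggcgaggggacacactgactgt
Rcan1, chr16:92400029-92400328, minus strand: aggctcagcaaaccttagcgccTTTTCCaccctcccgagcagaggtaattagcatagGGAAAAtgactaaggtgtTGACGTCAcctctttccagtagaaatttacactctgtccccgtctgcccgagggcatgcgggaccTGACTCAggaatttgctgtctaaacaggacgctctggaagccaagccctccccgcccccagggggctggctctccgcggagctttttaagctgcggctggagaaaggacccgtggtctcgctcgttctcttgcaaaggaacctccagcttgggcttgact

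The searched motifs were the cyclic AMP response element CRE (TGACGTCA) and its 5-base part TGACG, the CArG box bound by serum response factor, the EGR motifs GCGGGGGCG and GCGTGGGCG, the NBRE bound by Nr4a monomers (AAAGGTCA), the SOX motif AACAAAG, the NFAT core GGAAAA, a shorter SOX motif (AACAAT) and the AP-1 motif TGANTCA. The 5-base part lies within the full CRE and is counted there on each strand. The windows of Nr4a1, Nr4a2 and Nr4a3 each held 4 matches to TGACG or its reverse complement. Of all 32544 distinct windows, 20.9% held at least 1 such match and 0.234% held 4 or more. The cut of 4 is the count seen in the Nr4a windows, so this share is a description and not a test. Nr4a1 also held an EGR motif, which 2.93% of all windows had. Nr4a2 held the one SOX match among the 6 genes, to AACAAT, which 10.6% of all windows had.

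The Egr2 window shown held a CArG box between matches to TGACG on either side. A CArG box occurred in 1.64% of all windows. The Rcan1 window shown is the one at the internal start, from which the short, calcineurin-induced transcript is known to arise. It held 2 NFAT cores (23.3% of windows had at least 1), a full CRE (1.80%) and an AP-1 motif (7.79%). The window at the upstream start of Rcan1 and the first window of Egr2 held 0 matches to any searched motif. That of Nfil3 held 1, to TGACG. A match shows only that these letters are present, and no binding was measured.

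**Figure D1:**
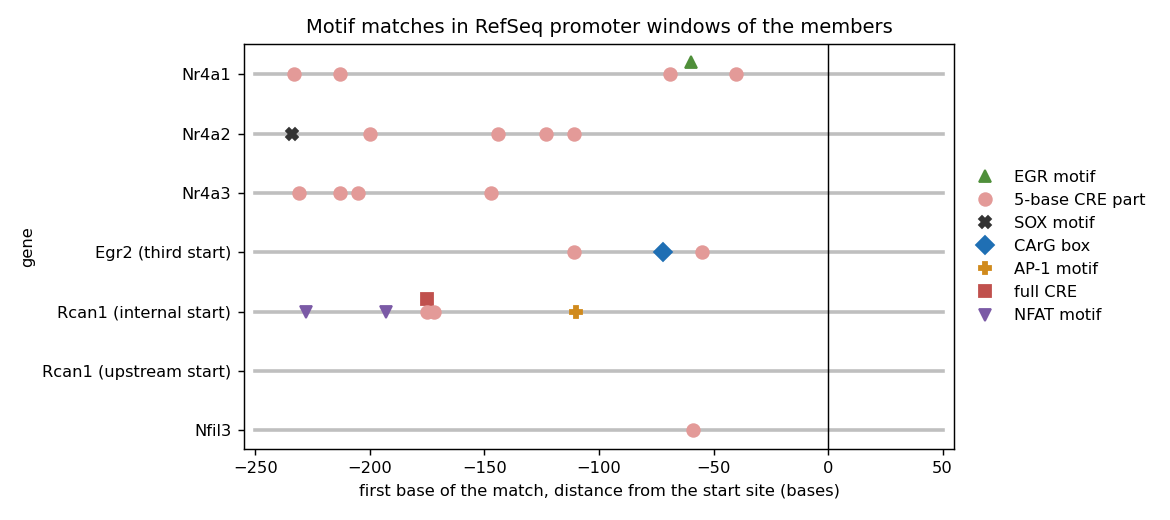
Motif matches in 7 promoter windows of the members, with the distance from the start site in bases on the horizontal axis and 1 line for each window. Symbols stand for the kinds of motif, and the vertical line is the start site. Each Nr4a window has 4 matches to the 5-base CRE part, all upstream of the start.

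In Treg the members spanned levels from 3.58 to 74.9 FPKM, and their order was nearly the same in both libraries. Ier2, a small nuclear protein of the immediate early class, stood highest at 74.9 FPKM in both. Below it in untreated Treg came Myc (36.6), Egr1 (35.3) and Nr4a1 (32.7 FPKM), which were close to each other, and in DSS Treg Egr1, Nr4a1 and Myc. Egr2, Egr3 and Nr4a3 followed between 6.63 and 11.8 FPKM. Nfil3 and Rcan1 were lowest, between 3.58 and 5.42 FPKM. With 1 library per group the spread around a level is not known, so neighbours in this order cannot be said to differ. FPKM takes account of gene length, so that levels can be set side by side, although it depends on the transcript models used.

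In the transduced cells Nr4a1 led with the mock vector, at 161 FPKM, and Myc with the Sox12 vector, at 153 FPKM. Nr4a3, Ier2, Egr3 and Egr1 followed, between 43.1 and 89.1 FPKM over both libraries. Nr4a2, Nfil3 and Egr2 lay between 12.4 and 25.6 FPKM, and Rcan1 was again lowest, at 4.60 and 4.48 FPKM. Egr3 stood above Egr1 with the mock vector and below it with the Sox12 vector. The 2 tables were normalized separately and differ in strain, cell type and handling, so no change was taken across them.

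**Figure D2:**
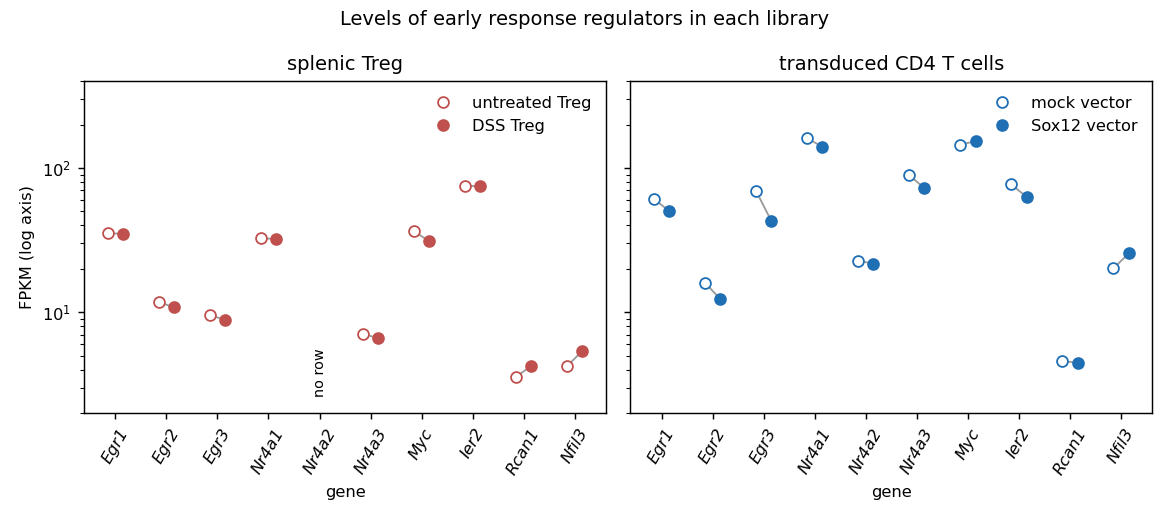
FPKM of each member on a log axis, in splenic Treg (left, untreated as open and DSS as filled circles) and transduced CD4 T cells (right, mock as open and Sox12 as filled circles), with 1 library per circle and hence no error bars. Pairs lie close together for all members shown, and the widest separation is that of Egr3 on the right, at 69.4 and 43.1 FPKM.

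The first comparison addressed splenic Treg after DSS. Changes are differences of log2(FPKM + 1), treated minus control, which understate the change of low genes, while ratios are of the FPKM themselves. A gene passed the size rule when its change was at least 1 in either direction. Of the 9 listed members 0 passed, and 0.266% of all 10545 genes whose 2 libraries averaged at least 1 FPKM did. Of the members 6 were lower and 3 higher in DSS Treg, with a median change of -0.02, whereas 33.9% of all genes were lower and their median change was 0.05. Under the 3 other scalings 7 members were lower and 2 higher, and at least 40.7% of all genes were lower. In bulk RNA fewer cells of a type and less RNA per cell cannot be told apart.

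The Egr genes, which bind GC-rich sites through zinc fingers, were slightly lower in DSS Treg or nearly level. Egr1 had 35.3 FPKM without and 35.1 FPKM with DSS, a change of -0.01. Egr2 had 11.8 and 10.9 FPKM, a change of -0.11. Egr3 had 9.59 and 8.87 FPKM, a change of -0.10. Egr2 and Egr3 thus stood at 0.920 and 0.925 times the untreated level, and 11.5% and 12.4% of all genes had a lower change than they did.

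Of the Nr4a receptors, Nr4a1 (Nur77) had 32.7 FPKM without and 32.2 FPKM with DSS, a change of -0.02. Nr4a3 (Nor1) had 7.10 and 6.63 FPKM, a change of -0.09. Both lay well inside the distribution of all genes, of which 5% were below -0.20 and 5% above 0.31.

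Myc, the factor that drives growth and ribosome production after activation, had 36.6 FPKM without and 31.0 FPKM with DSS. Its change of -0.23 was below that of all but 3.81% of genes. Ier2 had 74.89 and 74.94 FPKM, a change of 0.00 whose sign turned negative under each of the 3 other scalings of the libraries. The other listed members were on the high side. Rcan1, which binds and restrains calcineurin, had 3.58 and 4.27 FPKM, a change of 0.20. Nfil3, a basic leucine zipper repressor, had 4.25 and 5.42 FPKM, a change of 0.29, and 94.2% of all genes had a lower change. These 2 are also the members with the lowest levels in Treg, and with a pseudocount of 5 their changes were 0.11 and 0.17. The depth of the DSS table is unknown, so no counting error can be set beside them.

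Markers of several other cell types differed between the Treg libraries. Macrophage and monocyte markers, 3 of 8 listed, had sums of 17.75 FPKM without and 16.9 FPKM with DSS, with 2 higher and 1 lower. B cell markers, 3 of 7 listed, had sums of 38.9 and 31.8 FPKM, with 1 higher and 2 lower. The 1 dendritic cell marker listed of 6 had 0.824 and 1.03 FPKM. Of 6 basophil and mast cell markers, 6 were listed, and their summed level was 8.20 FPKM without and 29.9 FPKM with DSS. Of 10 erythroid markers 9 were listed and 9 were higher, with sums of 430 and 656 FPKM. Of 7 neutrophil and granule markers 5 were listed, with sums of 20.2 and 29.2 FPKM. Mpo, Prtn3 and Elane were higher, whereas 2 others had lower values in DSS Treg, S100a9 at 1.19 against 0.449 FPKM and S100a8 at 1.08 against 0.678 FPKM. In DSS Treg 4 of 5 plasma cell genes had the lower value, with sums of 342 and 294 FPKM, and NK and CD8 T cell markers in 5 of 5 past the filter, with sums over the 6 listed of 34.7 and 29.8 FPKM. No listed marker of these lists was at 0. Beside these counts, 66.05% of all genes past the filter were higher in DSS Treg and 33.95% lower. Early response genes are expressed by many cell types, and the part of these cells in the values of the members was not tested.

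The second comparison addressed CD4 T cells that carried Sox12. The difference between these libraries was wider than between the Treg libraries, with 6.76% of all 10822 genes past the size rule, and of the 10 members 0 passed it. Of all the genes past the rule 525 were higher and 207 lower. Of the members 8 were lower and 2 higher with the Sox12 vector, with a median change of -0.24, whereas 51.1% of all genes were lower and their median change was -0.01. When the summed FPKM without the 20 highest genes was made equal, 7 members were lower and 3 higher, and 44.0% of all genes were lower.

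All 3 Egr genes were lower with the Sox12 vector. Egr3 had 69.4 FPKM with the mock and 43.1 FPKM with the Sox12 vector, a change of -0.67. Only 5.17% of all genes had a lower change. Egr2 had 16.1 and 12.4 FPKM, a change of -0.35. Egr1 had 61.2 and 50.3 FPKM, a change of -0.28. The direction of all 3 was the same under each scaling and pseudocount tried, and Egr3 ranged from -0.71 to -0.62.

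The Nr4a genes were also lower with the Sox12 vector. Nr4a1 had 161 FPKM with the mock and 140 FPKM with the Sox12 vector, a change of -0.20. Nr4a3 had 89.1 and 72.4 FPKM, a change of -0.30. Nr4a2 (Nurr1) had 22.7 and 21.8 FPKM, a change of -0.06 that came to -0.0023 when the summed FPKM without the 20 highest genes was made equal. In the terms of all genes these are modest, because 26.5%, 18.7% and 43.3% of genes had a lower change than Nr4a1, Nr4a3 and Nr4a2.

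Ier2 had 76.9 FPKM with the mock and 63.1 FPKM with the Sox12 vector, a change of -0.28 that is close to those of Egr1 and Nr4a3. Myc had 145 and 153 FPKM, a change of 0.08, and so did not share the lower level of the Egr genes. Rcan1 had 4.60 and 4.48 FPKM, a change of -0.03 that became 0.02 when the summed FPKM without the 20 highest genes was made equal. Nfil3 had 20.2 and 25.6 FPKM, a change of 0.33, and 81.5% of all genes had a lower change.

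The low values of the vector table gave an estimate of depth, about 42.6 fragments per FPKM and kilobase with the mock and 44.6 with the Sox12 vector. With the shortest coding transcript of at least 1000 bases, the members rested on between 296 (Rcan1) and 19256 (Nr4a3) fragments with the mock vector. The 95% exact interval of the ratio of Sox12 to mock, from counting alone, was 0.592 to 0.651 for Egr3, 0.717 to 0.824 for Egr2 and 0.796 to 0.849 for Egr1. It was 0.850 to 0.888 for Nr4a1, 0.796 to 0.830 for Nr4a3 and 0.787 to 0.855 for Ier2. Above 1 lay Nfil3, at 1.19 to 1.35, and Myc, at 1.03 to 1.09. The intervals of Nr4a2 (0.904 to 1.02) and Rcan1 (0.825 to 1.14) included 1, so their differences were not detectable at this depth. These intervals hold neither the variation between preparations nor that between animals, which 1 library per group does not show.

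**Figure D3:**
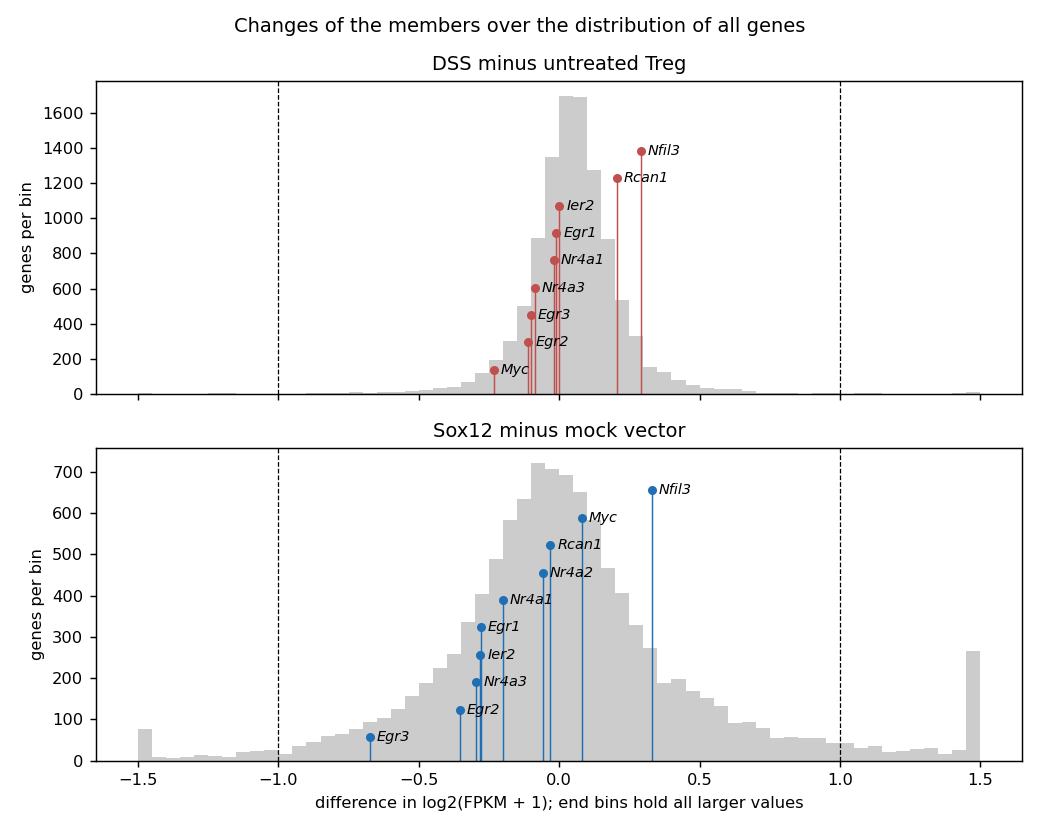
Changes of the members (lines with dots, at a height chosen for legibility) over the histogram of all genes past the filter, for DSS minus untreated Treg (top) and Sox12 minus mock vector (bottom), on the log2(FPKM + 1) scale with the number of genes per bin on the vertical axis. Dashed lines mark the size rule of 1. Every member lies between them, and Egr3 at -0.67 is the farthest from 0.

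Markers of NK and CD8 T cells were higher with the Sox12 vector in 10 of 10 cases, 7 of them past the size rule, and their summed level was 155 FPKM with the mock and 515 FPKM with the Sox12 vector. None was at 0 in either library, and Cd8a had 0.580 and 5.58 FPKM. Of all genes, 48.9% were higher with the Sox12 vector and 6.76% passed the size rule in either direction. T cell markers were lower in 6 of the 7 listed, with sums of 1378 and 1110 FPKM. The 1 past the size rule, Cd5, had 189 and 81.7 FPKM. The part of cell composition in the lower Egr and Nr4a levels was not tested.

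Of the 9 members in both tables, 5 were lower in both experiments (Egr1, Egr2, Egr3, Nr4a1 and Nr4a3) and 1, Nfil3, was higher in both. The experiments share no library. Among 9958 genes past the filter in both tables, 50.8% had the same sign in both. The share of all genes lower in both was not counted. Of all genes past the filter in each experiment, 33.95% were lower in DSS Treg and 51.1% with the Sox12 vector. In DSS Treg the changes of Egr1 and Nr4a1 were only -0.01 and -0.02. That of Ier2, 0.0009, turned negative under each of the 3 other scalings, and Ier2 was lower with the Sox12 vector. The count of 5 thus depends in part on the signs of very small changes. Myc was lower in DSS Treg and slightly higher with Sox12, and Rcan1 was higher in DSS Treg.

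Genes around the members were taken from 7 lists of partners and targets, without the members themselves. Of all genes past the filter, 66.05% were higher in DSS Treg (median 0.05) and 48.9% with the Sox12 vector (median -0.01). These shares belong beside the counts of each list. Of 48 other immediate early and receptor-induced genes, 40 passed the filter in Treg, with 22 higher and 18 lower after DSS and a median change of 0.02. Ccl3, a chemokine, was the 1 gene past the size rule, at 0.288 and 2.83 FPKM. In the transduced cells 46 passed the filter, 19 were higher and 27 lower with the Sox12 vector, and the median was -0.16. Here 3 passed the size rule upward and 6 downward, beside 525 and 207 of all 10822 genes. Xcl1, a chemokine, had 63.7 and 430 FPKM, and Ier5l, a relative of Ier2, had 2.56 and 11.5 FPKM. On the low side Il2, the T cell growth factor gene, had 35.1 and 8.40 FPKM, and the kinase gene Plk2 had 61.0 and 20.5 FPKM. The list thus held larger differences in both directions than any of the members.

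The list of Egr corepressors and known targets of Egr2 and Egr3 had 9 of 17 genes higher and 8 lower in DSS Treg (median 0.01), and 0 passed the size rule. Dgka, a diacylglycerol kinase that dampens receptor signals, had 378 and 367 FPKM, and Ndfip1, an adaptor of the ligase Itch, had 180 and 183 FPKM. With the Sox12 vector 7 of 16 were higher and 9 lower (median -0.10, or -0.04 with the summed FPKM without the 20 highest genes made equal). The 2 genes past the size rule, which 6.76% of all genes passed and 71.7% of those upward, were higher, namely the cytokine signalling inhibitor Socs3 at 7.72 and 23.9 FPKM and the adhesion receptor Crtam at 13.1 and 29.6 FPKM.

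The retinoid X receptors, partners of Nr4a1 and Nr4a2, and known Nr4a targets had 9 of 15 genes higher in DSS Treg, with a median of 0.14 and 0 past the size rule. The most abundant were Klf2, a factor of T cell egress, at 171 and 157 FPKM and the coinhibitory receptor Ctla4 at 128 and 146 FPKM. With the Sox12 vector 7 of 15 were higher and 8 lower (median -0.07), with 4 past the size rule upward and 2 downward. Of all 10822 genes 6.76% passed it, 525 upward and 207 downward. The median of the list was 0.00 with no filter on level and -0.01 when the summed FPKM without the 20 highest genes was made equal. Foxp3 had the largest change, 2.55. Klf2 had 8.06 and 46.7 FPKM, the death regulator Bcl2l11 10.2 and 31.7 FPKM, and the coinhibitory receptor Havcr2 6.63 and 21.2 FPKM. The 2 past the rule downward were Ccr4, with a change of -1.26, and Irf4, with -1.08.

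Genes of the Myc network of dimers include competitors of Myc besides its partner Max. In DSS Treg 7 of 9 were higher (median 0.07), with 0 past the size rule. Mxd4 had 89.8 and 91.4 FPKM and Max, the obligate partner, 61.8 and 65.1 FPKM. With the Sox12 vector 8 of 10 were higher (median 0.23), whereas Max was lower, with a change of -0.20. Of all genes 6.76% passed the size rule, and of this list 2. These were Mycn, a paralog of Myc, at 1.81 and 7.10 FPKM, and Mxd1, which competes with Myc for Max, at 10.03 and 30.5 FPKM. The 30 Myc targets of ribosome production and growth had medians of 0.02 in Treg (19 higher, 11 lower) and -0.01 in transduced cells (14 higher, 16 lower), and 0 passed the size rule in either. Npm1, a nucleolar chaperone, had 129 and 144 FPKM in Treg and 597 and 567 FPKM in transduced cells, and the translation factor gene Eif4a1 had 174 and 174 and 436 and 497 FPKM. The median of these targets in Treg turned to -0.03 when the median change of all genes was set to 0, and that in transduced cells to 0.05 when the summed FPKM without the 20 highest genes was made equal.

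Calcineurin and NFAT genes, which act upstream of Rcan1, Egr2 and Egr3, were higher in 9 of 15 cases in DSS Treg (median 0.08) and lower in 11 of 15 with the Sox12 vector (median -0.28, or -0.07 with no filter on level). None passed the size rule in either. The most abundant was Calm2, at 116 and 134 FPKM in Treg and 216 and 274 FPKM in transduced cells. PAR bZIP factors, which share DNA sites with Nfil3, and clock genes were higher in 9 of 12 cases in Treg (median 0.08) and lower in 9 of 11 with the Sox12 vector (median -0.23, or -0.13 with a pseudocount of 5), with 0 past the size rule. Per1 had 15.2 and 17.0 FPKM in Treg and 11.1 and 10.3 FPKM in transduced cells, and Cry1 had 14.5 and 14.3 and 11.5 and 10.02 FPKM. Beside both lists, 66.05% of all genes were higher in DSS Treg and 51.1% lower with the Sox12 vector. Nfil3 itself was higher in both experiments.

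**Figure D4:**
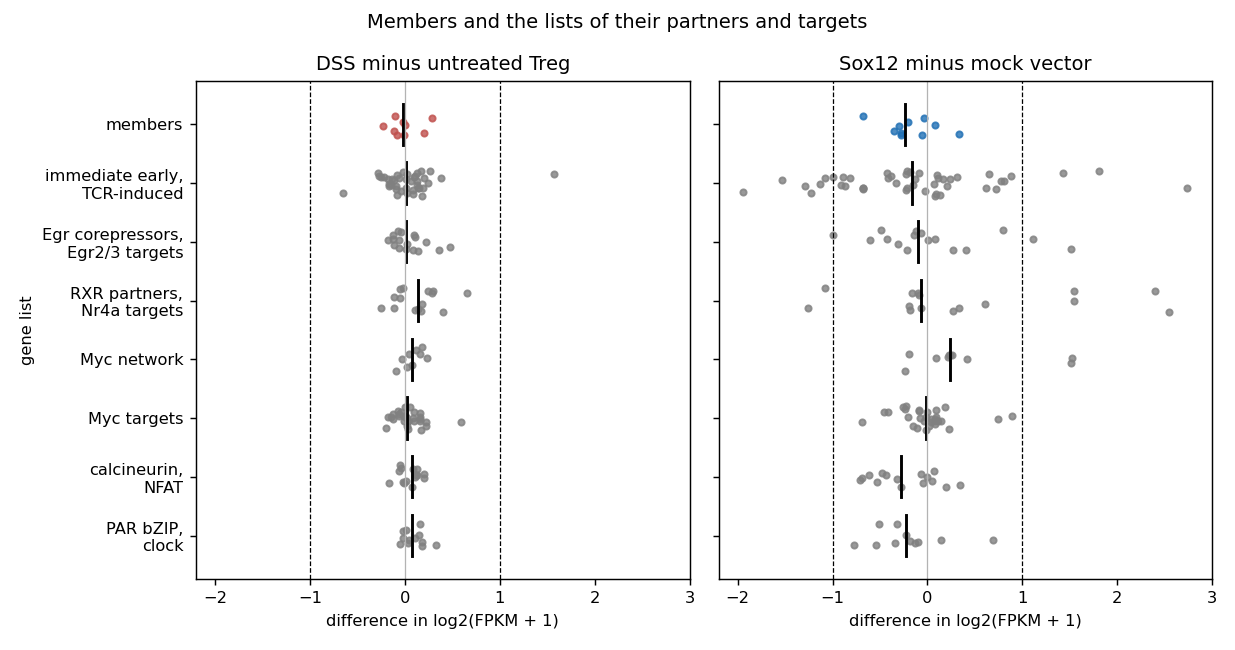
Change of each gene past the filter, on the log2(FPKM + 1) scale, for the members (coloured) and 7 lists of partners and targets (grey), in Treg (left) and transduced cells (right). Black bars are medians and dashed lines the size rule. In Treg nearly all points lie near 0. In transduced cells the receptor-induced genes and known Nr4a targets spread past the rule on both sides. The members, fewer than the genes of either list, stay inside it, and 6.76% of all genes pass it.

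By the pair of changes in the 2 experiments, the genes most like Egr3 among 7150 that averaged at least 5 FPKM in both tables were Lrch1, Ccnd3 and Brp44l, at distances of 0.0257 to 0.0368. Ccnd3 had 71.2 and 67.5 FPKM in Treg and 111 and 68.3 FPKM in transduced cells. Nearest to Nr4a3 were Nt5c3, Myl12a and Scfd1 (0.00756 to 0.00879), and nearest to Nfil3 were Abcc5, Clstn1 and Orc2 (0.0112 to 0.0317). The distance is Euclidean on the log2(FPKM + 1) scale and rests on 2 differences, so it describes these 4 libraries alone.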

How the data were processed

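Strand-specific RNA libraries were made from total RNA, per the labels' protocols. Cufflinks and the mouse build mm9 are named, without a version, per the submitters' processing notes, and the sources used here do not give the aligner or annotation. The deposited DSS table holds FPKM per gene and the authors' ratio of DSS to untreated, and lists genes above 1 FPKM in at least 1 library. Values in the deposited vector table are log2(FPKM + 1), beside the authors' log2 fold change, and were turned back to FPKM. FPKM does not keep counts. Of the rows, 16 and 25 with names turned into dates or serial numbers were left out (0.261% to 0.263% and 0.200% to 0.218% of summed FPKM).

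Changes were differences of log2(FPKM + 1), a pseudocount of 1, among genes whose 2 libraries averaged at least 1 FPKM. No test was run, since each group holds 1 library. Depth in the vector table came from values below 0.1 FPKM of genes with a single transcript in GENCODE vM21, by inverting the product of FPKM and length and taking the commonest result between 25 and 100 (45 of 173 and 47 of 225 genes). Promoter windows came from RefSeq, GRCm38.p6. The calculation of change was tested on simulated counts and the motif search on short test sequences. The depth estimate and the counting intervals were not tested in this way. Python 3.11.15, pandas 2.3.3 and scipy 1.17.1 were used.

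The members and lists were chosen with earlier results of these data known. The naming rule takes all members, and from each list, per experiment, up to 4 genes past the size rule by size of change, or else the 2 with the highest mean. One gene that the rule takes is not reported here. Further genes are named as cell markers, and Max, Irf4 and Ccr4 with the Sox12 vector were added outside the rule. Alternatives were 3 pseudocounts, 2 filters and 3 scalings.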

Additional observations from a re-analysis of the deposited data

How the results depend on the processing

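No member passed the size rule under any of the 8 alternatives in either experiment. The count of all genes past it in the DSS experiment, 28, was 59 with a pseudocount of 0.1, 9 with a pseudocount of 5 and 10 among genes averaging at least 5 FPKM. In the vector experiment it was 732, and 316 with a pseudocount of 5 and 461 among genes averaging at least 5 FPKM. The genes of the partner and target lists past the rule in Treg numbered 1, but 2 with a pseudocount of 0.1 and 0 with a pseudocount of 5 or an average of at least 5 FPKM. In the vector experiment they numbered 18, and 16 to 20 over the alternatives. The filter of 5 FPKM tests fewer genes and leaves out Rcan1 and Nfil3 in Treg and Rcan1 in transduced cells. The sign was the same under all alternatives for 8 of 9 members in Treg and 9 of 10 in transduced cells, the exceptions being Ier2 and Rcan1. In Treg the medians of the receptor-induced list and of the Egr list turned negative under each of the 3 scalings (-0.03 to -0.01 and -0.04 to -0.01). With the median change of all genes set to 0, Egr1 in Treg moved from -0.01 to -0.06, and the Treg medians of the Nr4a, Myc network, calcineurin and clock gene lists moved to 0.09, 0.02, 0.03 and 0.03. No paired analysis was possible because each group holds 1 library, and for the same reason no library could be left out.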

Other observations

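The balance of the family members within a library differed between the cell preparations. The ratio of Egr3 to Egr2 in FPKM was 0.814 and 0.818 in untreated and DSS Treg, and 4.32 and 3.48 with the mock and Sox12 vectors. The ratio of Egr1 to Egr3 was 3.68 and 3.95 in Treg and 0.881 and 1.17 in transduced cells. Nr4a1 stood at 4.60 and 4.86 times Nr4a3 in Treg and at 1.81 and 1.93 times in transduced cells, and at 7.09 and 6.43 times Nr4a2 in the latter. The Treg and the transduced cells differ in strain, cell type and handling, and a ratio of FPKM depends on the transcript models, so these are values without a test. Together the listed members made up 0.0661% and 0.0635% of the summed FPKM of the Treg libraries (9 members) and 0.156% and 0.142% of that of the mock and Sox12 vector libraries (10 members).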
